A study of Mus musculus with 12 samples.

Results

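The genes described here are those of the urea cycle and of amino acid breakdown in mouse liver. The members are the urea cycle enzymes Cps1, Otc, Ass1, Asl and Arg1, the glutamine enzymes Glul and Gls2, and Agxt, Hal and Tdo2, which act on glyoxylate and alanine, histidine and tryptophan. A member was read from probe sets whose only gene symbol in the array's annotation is that gene, and where a gene had several, the brightest one, by its mean over the arrays, was used. This gave 9 of the 10 members, among 18193 genes with such a probe set. Gls2 was not analysed here, and all 9 other members passed the filter on low values, as did 13788 genes in all.

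RNA came from the livers of 12 male C57BL6J mice aged 30 weeks, 1 mouse per 3′ expression array and 3 mice per group. Penicillin high-fat mice drank water holding penicillin at 6.7 mg/L and ate a diet with 45% of its energy as fat from week 17. Control high-fat mice ate that diet without the antibiotic. Penicillin chow mice had the antibiotic with chow of 13.5% fat energy throughout, and control chow mice had chow alone. All groups began on chow, and arrays are named here by group and the replicate number of the labels.

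The urea cycle turns ammonia, which is toxic, into urea for excretion, and in mammals the whole cycle runs in the liver. Its enzymes are most abundant in hepatocytes around the portal vein, while glutamine synthetase, the product of Glul, is confined to the few hepatocytes around the central vein, where it takes up the ammonia that has escaped the cycle. Amino acids feed nitrogen into the cycle through aminotransferases and through enzymes that open the breakdown of single amino acids.

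Agxt and Glul had the largest differences of the members, one in each direction, between penicillin and control mice on the high-fat diet, so their promoters are shown. The sequences are the RefSeq reference of build GRCm38.p6, 250 bases before to 50 bases after the gene's start, from chr1:93134990-93135289 for Agxt and chr1:153899679-153899978 for Glul, both on the + strand. Capitals mark matches to CAATAAAA, and in Glul also to CCAAT.

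Agxt: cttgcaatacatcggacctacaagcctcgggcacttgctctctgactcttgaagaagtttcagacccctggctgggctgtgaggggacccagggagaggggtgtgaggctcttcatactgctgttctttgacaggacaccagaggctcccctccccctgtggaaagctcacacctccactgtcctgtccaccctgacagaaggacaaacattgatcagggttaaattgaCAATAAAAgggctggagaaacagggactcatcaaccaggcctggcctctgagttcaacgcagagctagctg

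Glul: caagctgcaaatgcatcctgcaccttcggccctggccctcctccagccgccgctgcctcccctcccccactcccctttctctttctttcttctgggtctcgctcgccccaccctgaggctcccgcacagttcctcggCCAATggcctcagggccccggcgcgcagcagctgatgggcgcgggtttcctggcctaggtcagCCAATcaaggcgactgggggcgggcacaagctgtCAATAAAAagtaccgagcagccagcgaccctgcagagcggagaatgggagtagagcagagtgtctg

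CAATAAAA was searched for after both sequences had been read, so its presence in both is a description and nothing more. It begins at -21 in Agxt and at -16 in Glul, counted from the start site, on the gene's strand. Of 32851 promoters of this length in the table, 1.79% hold it on either strand. CCAAT, found in 37.4% of promoters, occurs in Glul at -113 and at -50 and has no match in the Agxt window. TATAAA (13.6% of promoters), TGACG (20.8%) and TTGCNNAA (10.8%), searched on both strands, match in neither window.

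Values are log2 expression as deposited, so a difference of 1 is a doubling. Arrays of a group correlated at 0.991 to 0.996 over all 45101 probe sets. The 18S ribosomal control probes read 11.8 on penicillin high-fat 2, penicillin chow 2 and penicillin chow 3, and at least 12.7 on the other arrays. A clock score was taken as the average level of 9 Per and Dbp phase genes less that of 4 Bmal1 phase genes, centred on its mean over the 12 arrays. Penicillin high-fat 1 had the lowest score, at -1.66, and penicillin chow 1 the highest acute-phase score, at 1.62, which is the average level of the acute-phase genes centred in the same way. Hepatocyte markers were bright on every array, with mean levels between 14.1 and 14.3. Of markers with a probe set, 3 of 4 bile duct, 5 of 6 lymphocyte, 3 of 4 acinar and 1 of 3 adipocyte markers passed the filter, with the mean level of these lists between 4.48 and 5.90 on any array; Krt7, Cd79a, Cel, Adipoq and Lep did not pass it.

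Penicillin was first compared with control on the high-fat diet, to ask whether the antibiotic alters these genes in mice on that diet. Agxt fell, and it was the 1 member of 9 past an adjusted p of 0.05 (0.341% of all tested genes passed). Glul stood higher and Cps1 lower in penicillin mice, and neither passed. For 5 of the 9 members the 3 penicillin mice and the 3 control mice did not overlap, 1 of them higher (Glul) and 4 lower (Cps1, Asl, Arg1 and Agxt). Over all tested genes, 17.3% had groups that did not overlap. The median difference of the 9 members was -0.11, against 0.00 over all tested genes.

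**Figure D1:**
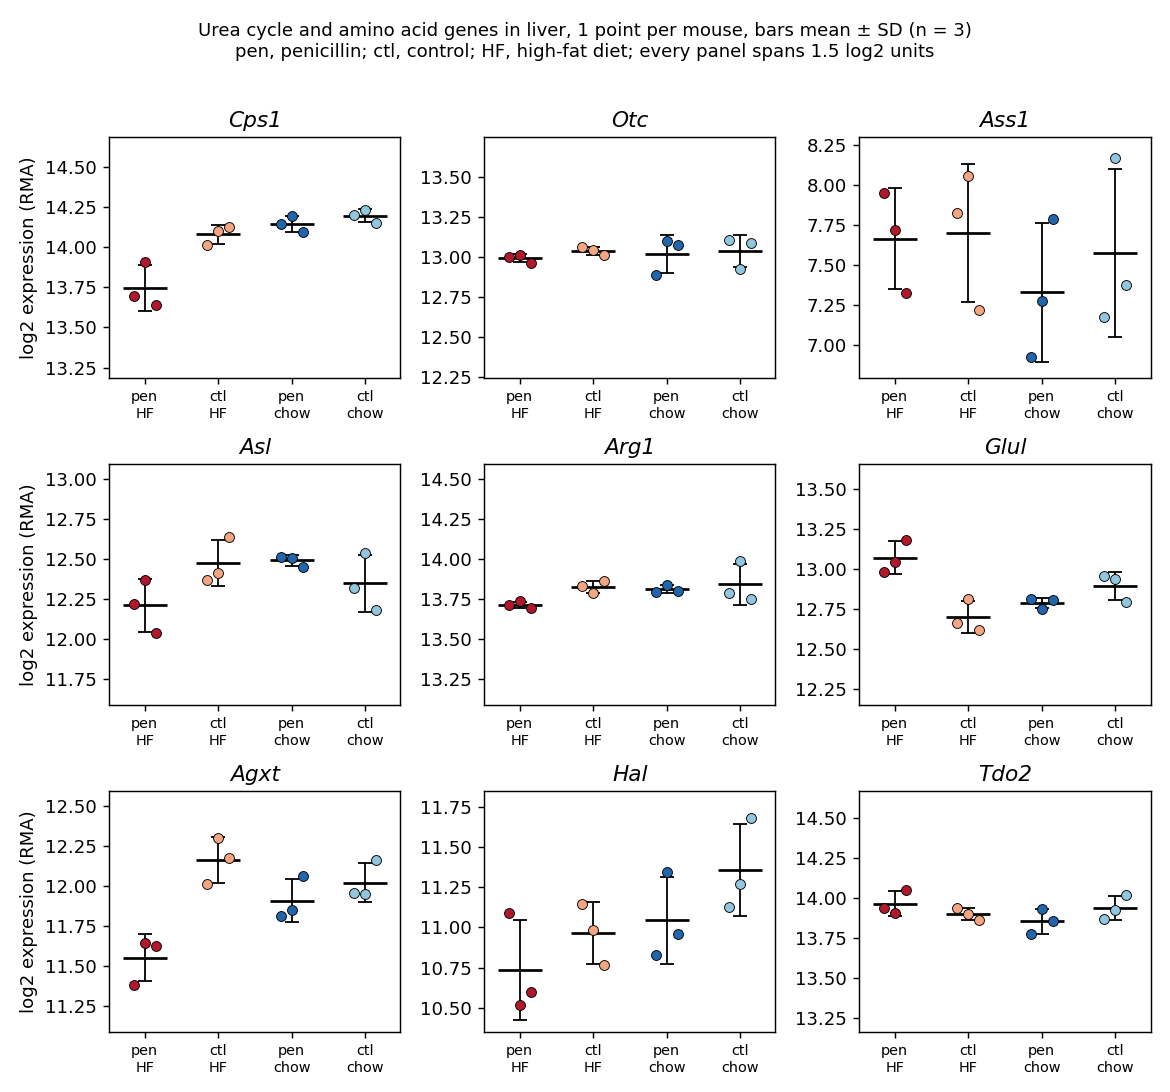
Log2 expression of the 9 members in each mouse (points), with group means and SD (bars, n = 3), for penicillin high-fat, control high-fat, penicillin chow and control chow mice. Penicillin high-fat mice lie lowest for Agxt and Cps1 and highest for Glul, while the groups overlap widely for Ass1, Hal, Otc and Tdo2.

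Agxt encodes the alanine-glyoxylate aminotransferase, which turns glyoxylate into glycine and so keeps it from becoming oxalate. Its log2 values were 11.38, 11.65 and 11.63 in penicillin high-fat mice, against 12.01, 12.30 and 12.18 in control high-fat mice. Every penicillin mouse on this diet lay below every control mouse on it, and also below all 6 chow mice, whose values ran from 11.81 to 12.16. The difference was -0.61 ± 0.11 (SE; 95% interval -0.85 to -0.38), so that Agxt fell by 34.6%, with an adjusted p of 0.0404 by limma. In bulk liver, fewer cells of a type and less RNA per cell cannot be told apart.

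The Agxt call lay close to the threshold. Its difference stayed between -0.69 and -0.53 when each of the 12 arrays was left out in turn, but the adjusted p ran from 0.0339 to 0.182. The call held in 4 of the 12 fits, those without penicillin high-fat 2, penicillin chow 1, penicillin chow 3 or control chow 3, and was lost without penicillin high-fat 1 or 3, penicillin chow 2, control chow 1 or 2, or any of the control high-fat mice. With the clock score as a covariate the difference was -0.56 (adjusted p = 0.127), and with the 18S signal it was -0.66 (adjusted p = 0.0148). The clock genes themselves lay lower or higher by phase in this comparison: all 9 Per and Dbp phase genes had negative differences, with a median of -0.37, and all 4 Bmal1 phase genes positive ones, with a median of 0.32, and 0 of them passed by limma, with 1 at an unadjusted p under 0.05. Of 7 acute-phase genes, 6 had positive differences (median 0.68), with mean levels of 10.8 to 11.2 in penicillin high-fat mice and 10.3 to 10.5 in control high-fat mice. By limma 0 of these 7 passed, with 2 at an unadjusted p under 0.05, and their part in the Agxt difference was not tested.

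Glul, glutamine synthetase, had values of 12.98, 13.04 and 13.18 in penicillin high-fat mice, against 12.66, 12.81 and 12.62 in control high-fat mice. The penicillin mice lay above all 9 other mice. The difference was 0.37 ± 0.08 (95% interval 0.19 to 0.55), which missed the threshold (adjusted p = 0.086). The other Glul probe set, 1426235_a_at, read 11.69, 11.66 and 11.80 in penicillin high-fat mice, against 11.41, 11.42 and 11.16 in control high-fat mice, a difference of 0.39 ± 0.12 with groups that again did not overlap. With every probe set tested by limma, its adjusted p was 0.312 and that of the probe set used was 0.118, so neither passed.

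Cps1, carbamoyl phosphate synthetase, performs the first and rate-limiting step of the cycle in mitochondria. It had values of 13.70, 13.91 and 13.64 in penicillin high-fat mice, against 14.02, 14.10 and 14.13 in control high-fat mice. The groups did not overlap, and the difference was -0.33 ± 0.08 (95% interval -0.51 to -0.16, adjusted p = 0.125). Without penicillin high-fat 2 it passed, at -0.41 (adjusted p = 0.0333). The deposited values reach 15.2 at most, so the brightest genes, Cps1 among them, sit where an array can compress differences.

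Asl, which splits argininosuccinate into arginine and fumarate, had 12.22, 12.37 and 12.04 in penicillin high-fat mice, against 12.37, 12.41 and 12.64 in control high-fat mice. The highest penicillin value and the lowest control value were nearly equal, and the difference was -0.26 ± 0.11 (95% interval -0.51 to -0.02, adjusted p = 0.449). Arg1, the arginase that releases urea, had 13.71, 13.73 and 13.69 in penicillin high-fat mice, against 13.83, 13.78 and 13.86 in control high-fat mice. These groups were separate but close, at -0.11 ± 0.07 (95% interval -0.27 to 0.05, adjusted p = 0.661). Neither difference passed.

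For 4 members the groups overlapped. Otc, which joins carbamoyl phosphate to ornithine, differed by -0.05 (95% interval -0.22 to 0.12). Ass1, which makes argininosuccinate, was read from a single dim probe set, 1459937_at, whose values ran from 6.92 to 8.17, and 1 further probe set that carries a second gene symbol was not used. Its difference was -0.03 with a 95% interval of -0.69 to 0.62, so a change as large as that of Agxt was not excluded. Hal, which opens histidine breakdown, differed by -0.23 (95% interval -0.65 to 0.18), and Tdo2, which opens tryptophan breakdown, by 0.06 (95% interval -0.10 to 0.22).

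**Figure D2:**
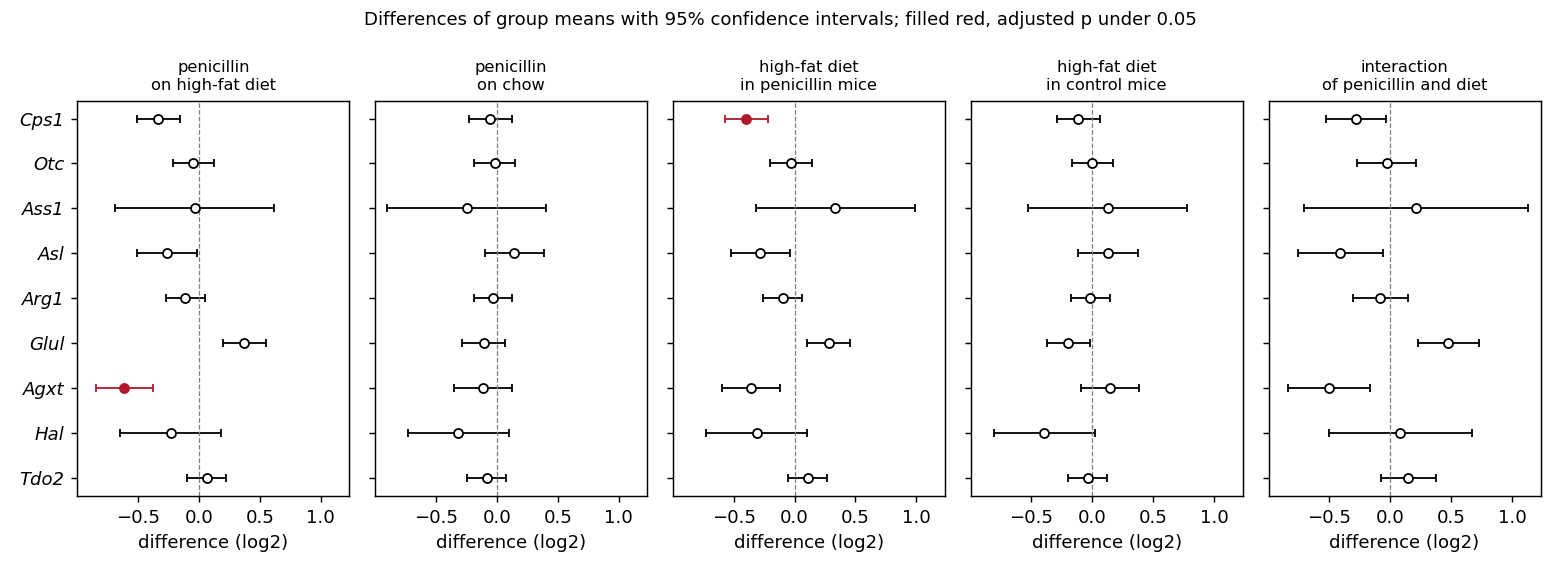
Differences in log2 expression (x axis) for the 9 members in 5 comparisons, with 95% confidence intervals; filled red points have an adjusted p under 0.05. Agxt is filled for penicillin on the high-fat diet, at -0.61, and Cps1 for the high-fat diet in penicillin mice, at -0.40.

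The same antibiotic was then compared with control on chow. By limma, 0 of 9 members passed (0.00725% of all genes did, 1 gene), and 0 had an unadjusted p under 0.05. By the probe set used for each gene, the groups of 3 overlapped for all 9 members, where 11.8% of all genes did not overlap. Dimmer probe sets of Otc and Tdo2 differ from this, as given below. Agxt had 11.81, 11.85 and 12.06 in penicillin chow mice, against 11.95, 11.95 and 12.16 in control chow mice, a difference of -0.11 (95% interval -0.35 to 0.12). Glul had 12.81, 12.75 and 12.80 in penicillin chow mice, against 12.96, 12.93 and 12.79 in control chow mice. Its difference was -0.11 (95% interval -0.28 to 0.07), and that of Cps1 was -0.05 (95% interval -0.23 to 0.12). The widest interval apart from Ass1 was that of Hal, at -0.32 (95% interval -0.73 to 0.10).

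Whether the effect of penicillin depended on diet was tested as an interaction, the difference on the high-fat diet minus that on chow. By limma, 0 of 9 members passed (0.0435% of all genes did), and 4 had an unadjusted p under 0.05. Glul stood at 0.48 ± 0.11 (adjusted p = 0.299), Agxt at -0.50 ± 0.15 (adjusted p = 0.576), Asl at -0.41 ± 0.16 (adjusted p = 0.748) and Cps1 at -0.28 ± 0.11 (adjusted p = 0.768). A different response on the 2 diets was thus not shown for any member. Averaged over both diets, 0 of 9 members passed for penicillin (0.145% of all genes did) and 3 had an unadjusted p under 0.05. Agxt was nearest there, at -0.36 ± 0.08 (adjusted p = 0.104).

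The high-fat diet was compared with chow within each treatment. In penicillin mice Cps1 fell, the 1 member of 9 past the threshold (8.32% of all genes passed). Its values were 13.70, 13.91 and 13.64 in penicillin high-fat mice, against 14.14, 14.20 and 14.09 in penicillin chow mice. The groups were clearly apart, and the difference was -0.40 ± 0.08 (95% interval -0.57 to -0.22), so that Cps1 fell by 24.0% (adjusted p = 0.0118 by limma). Without penicillin high-fat 1 the difference was -0.37 and the adjusted p 0.0532, while leaving out any other single array kept the call. The call was also lost with the clock score as a covariate, at -0.33 (adjusted p = 0.0731), with only the 6 arrays compared (adjusted p = 0.0705), and without penicillin high-fat 1 and penicillin chow 1 together (adjusted p = 0.0758).

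No other member passed for the diet in penicillin mice. Glul stood at 0.28 ± 0.08 (adjusted p = 0.0541), Agxt at -0.36 ± 0.11 (adjusted p = 0.0644), and Asl at -0.28 ± 0.11 (adjusted p = 0.147). For 5 of 9 members the groups did not overlap, Glul higher and Cps1, Asl, Arg1 and Agxt lower, where 28.0% of all genes did not overlap. This comparison and that of penicillin on the high-fat diet share the 3 penicillin high-fat mice.

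In control mice 0 of 9 members passed for the diet by limma (0.899% of all genes did), and 1, Glul, had an unadjusted p under 0.05. Glul had 12.66, 12.81 and 12.62 in control high-fat mice, against 12.96, 12.93 and 12.79 in control chow mice, with overlapping groups. Its difference was -0.20 ± 0.08 (adjusted p = 0.274), of the sign opposite to that in penicillin mice. Cps1 was the 1 member of 9 whose groups did not overlap, where 22.8% of all genes did not. It had 14.02, 14.10 and 14.13 in control high-fat mice, against 14.20, 14.23 and 14.15 in control chow mice, a difference of -0.12 ± 0.08 (adjusted p = 0.532).

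Averaged over treatments, Cps1 fell on the high-fat diet, the 1 member of 9 past the threshold by limma (14.5% of all genes passed). The difference was -0.26 ± 0.06 (95% interval -0.38 to -0.13, adjusted p = 0.0125), and the call was kept whichever of the 12 arrays was dropped. With the clock score as a covariate the adjusted p of Cps1 was 0.0574. Hal stood at -0.35 ± 0.13 (adjusted p = 0.102), with 11.09, 10.52 and 10.60 in penicillin high-fat mice, 11.15, 10.99 and 10.76 in control high-fat mice, 10.83, 11.35 and 10.96 in penicillin chow mice, and 11.13, 11.27 and 11.68 in control chow mice. Hal passed in 3 of 25 alternative fits, and its adjusted p reached 0.472 in the others. It passed without penicillin high-fat 1 (adjusted p = 0.0498) and without that array and penicillin chow 1 (adjusted p = 0.0309). It also passed with the clock score as a covariate, at -0.55 (adjusted p = 0.00939). With that covariate Hal also passed in penicillin mice alone, at -0.63 (adjusted p = 0.0419), in 1 of 26 alternative fits. Over those 26 fits its difference ran from -0.63 to 0.02.

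Markers of other liver cells moved with the diet too. In penicillin mice 8 of 11 Kupffer cell and macrophage markers rose on the high-fat diet (median 0.82), as did 4 of 8 sinusoidal endothelial markers (median 0.42) and 4 of 8 stellate cell markers (median 0.51). Of all genes, 8.32% passed there. The mean of penicillin chow mice was lower than that of control chow mice for all 11 Kupffer cell markers (median difference -0.53), though single mice overlapped for some of them. The same held for all 8 endothelial markers (median -0.31) and 6 of 8 stellate cell markers (median -0.40), and 0 of these passed by limma. At an unadjusted p under 0.05 by limma there were 9 of 11 Kupffer cell, 5 of 8 endothelial and 5 of 8 stellate cell markers. Of all 13788 tested genes, 1051 had such a p on chow. In control mice 0 markers of these lists passed for the diet, though all 11 Kupffer cell differences were positive (median 0.52). There 9 Kupffer cell, 5 endothelial and 1 stellate cell marker had an unadjusted p under 0.05 by limma, as did 2082 of all 13788 tested genes. The summed Kupffer cell level, on the log2 scale, was 13.2 to 13.9 in penicillin high-fat mice and 12.6 to 13.1 in penicillin chow mice. The summed hepatocyte level rounded to 17.3 in each penicillin high-fat mouse and to 17.4 in each penicillin chow mouse, and 1 of 8 hepatocyte markers, Cyp3a11, fell. The part of these markers in the Cps1 difference was not tested. For penicillin against control on the high-fat diet, 0 markers of these 4 lists passed by limma, and the Kupffer cell median was -0.17. At an unadjusted p under 0.05 there were 3 stellate cell markers, 1 hepatocyte marker and 0 of the other lists.

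The members with several probe sets were checked probe set by probe set. Otc and Tdo2 each have 3 and Glul has 2. Both Glul probe sets gave positive differences for penicillin on the high-fat diet and for the high-fat diet in penicillin mice. The 2 brighter Otc probe sets differed by -0.01 and -0.05 for the diet averaged over treatments, whereas the dim one, 1425540_at, fell by 0.37 ± 0.11 (adjusted p = 0.0441 over all probe sets). It had 7.50, 7.93 and 7.53 in penicillin high-fat mice, 8.01, 8.07 and 7.87 in control high-fat mice, 7.73, 8.19 and 8.15 in penicillin chow mice, and 8.60, 8.23 and 8.24 in control chow mice. The Otc probe sets therefore disagree on diet. For Tdo2 on chow, the probe set used differed by -0.08 between penicillin and control mice, and the others by -0.24 and -0.27 (adjusted p = 0.674 and 0.643 over all probe sets). In both of those others the groups did not overlap, with unadjusted p of 0.0305 and 0.0163 by limma. The dim Otc probe set was also lower without overlap in penicillin chow mice, at -0.34 (unadjusted p = 0.0497, adjusted p = 0.697 by limma).

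**Figure D3:**
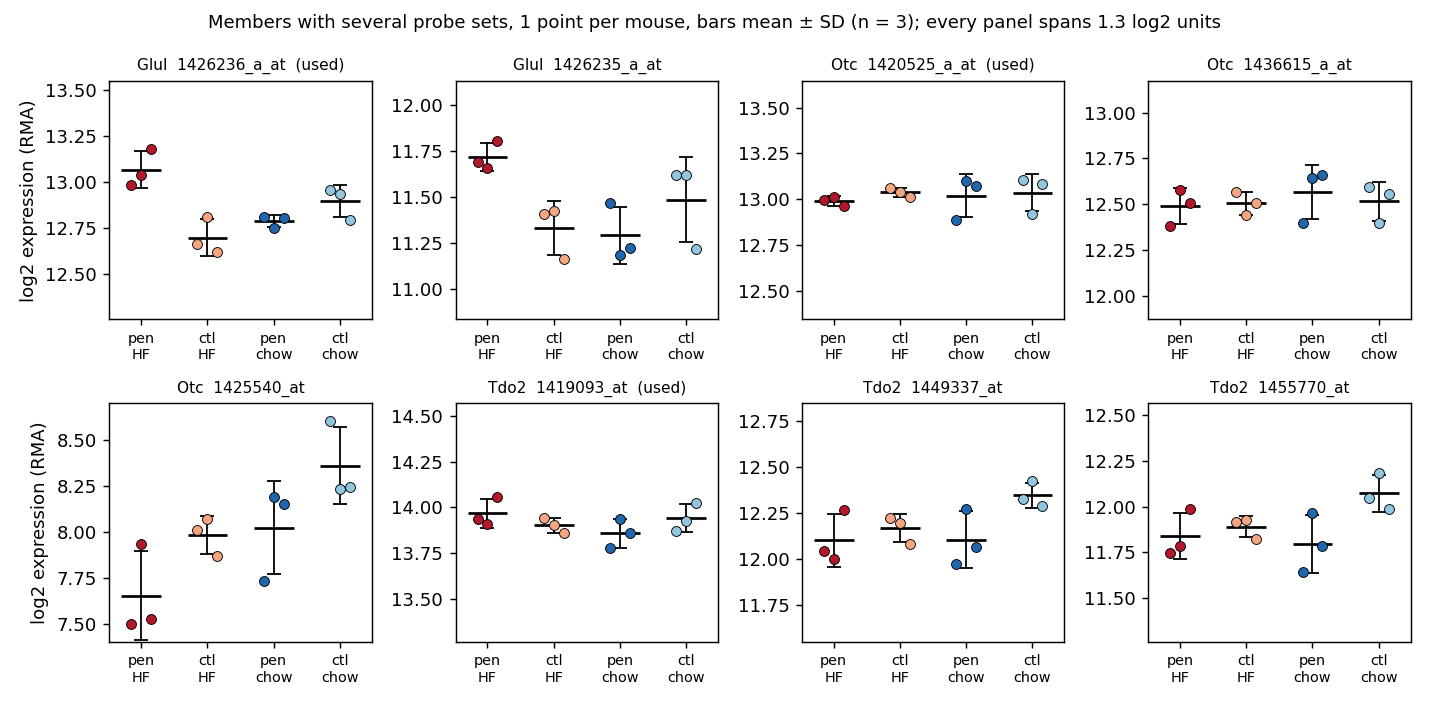
Log2 expression of each probe set of Glul, Otc and Tdo2 in each mouse (points), with group means and SD (bars, n = 3). Both Glul probe sets are highest in penicillin high-fat mice, and the dim Otc probe set 1425540_at is lower on the high-fat diet while the 2 brighter ones are level.

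Other genes of nitrogen and amino acid metabolism were counted in 9 lists of pathway genes that leave the members out, with 89 genes tested. Under penicillin on the high-fat diet 0 of the 89 passed by limma, and 12 had an unadjusted p under 0.05. Negative differences numbered 64 and positive ones 25, with a median of -0.08 against 0.00 over all genes. In the list of glyoxylate, glycine and serine genes, to which the reaction of Agxt is closest, 10 of 13 differences were negative (median -0.16), among them the glycolate oxidase Hao1 at -0.17 (adjusted p = 0.41) and the glycine methyltransferase Gnmt at -0.25 ± 0.09 (adjusted p = 0.363). On chow the same list also had 10 of 13 negative differences between penicillin and control mice, with a median of -0.09. By limma 0 of the 13 passed on either diet, with 4 at an unadjusted p under 0.05 on the high-fat diet and 1 on chow. All 3 histidine genes that act after Hal were negative, from -0.17 to -0.13. Under penicillin on chow 0 of the 89 passed by limma as well, 7 had an unadjusted p under 0.05, and 60 were negative.

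In penicillin mice 9 of the 89 pathway genes changed on the high-fat diet, 3 higher and 6 lower, or 10.1% against 8.32% of all genes. In the list of urea cycle support, 1 of 9 changed: Nags, which makes the N-acetylglutamate that Cps1 needs to be active, fell. Nags had 9.50, 9.47 and 9.60 in penicillin high-fat mice, against 10.12, 9.82 and 9.88 in penicillin chow mice, without overlap, a difference of -0.41 ± 0.10 (adjusted p = 0.0235). Of 14 glutamate and glutamine genes, the glutamine transporter Slc38a3 fell and Prodh2 rose. Slc38a3 had 12.07, 12.70 and 12.39 in penicillin high-fat mice, against 12.98, 13.07 and 12.89 in penicillin chow mice, a difference of -0.59 ± 0.13 (adjusted p = 0.0155). Prodh2, which oxidises hydroxyproline, differed by 0.34 ± 0.08 (adjusted p = 0.0267).

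Among 9 tryptophan genes that act after Tdo2, Afmid, the formamidase of the kynurenine pathway, fell by 0.61 ± 0.14 (adjusted p = 0.0248) on the high-fat diet in penicillin mice, and the aminotransferase Aadat fell by 0.58 ± 0.16 (adjusted p = 0.0478). Of 20 branched chain genes, the dehydrogenases Ivd and Acadsb fell by 0.34 ± 0.08 and 0.45 ± 0.08, and Bckdhb, a subunit of the branched chain keto acid dehydrogenase, rose by 0.32 ± 0.07. Acadsb was the clearest of them, with 10.34, 10.44 and 10.44 in penicillin high-fat mice, against 10.72, 10.89 and 10.94 in penicillin chow mice (adjusted p = 0.00558). In the methionine and cysteine list 1 of 10 passed, Mpst at 0.34 ± 0.08 (adjusted p = 0.0236). In the lists for glyoxylate, glycine and serine, histidine, phenylalanine and tyrosine, and lysine, 0 genes passed in this comparison by limma, and 4, 0, 1 and 0 had an unadjusted p under 0.05.

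**Figure D4:**
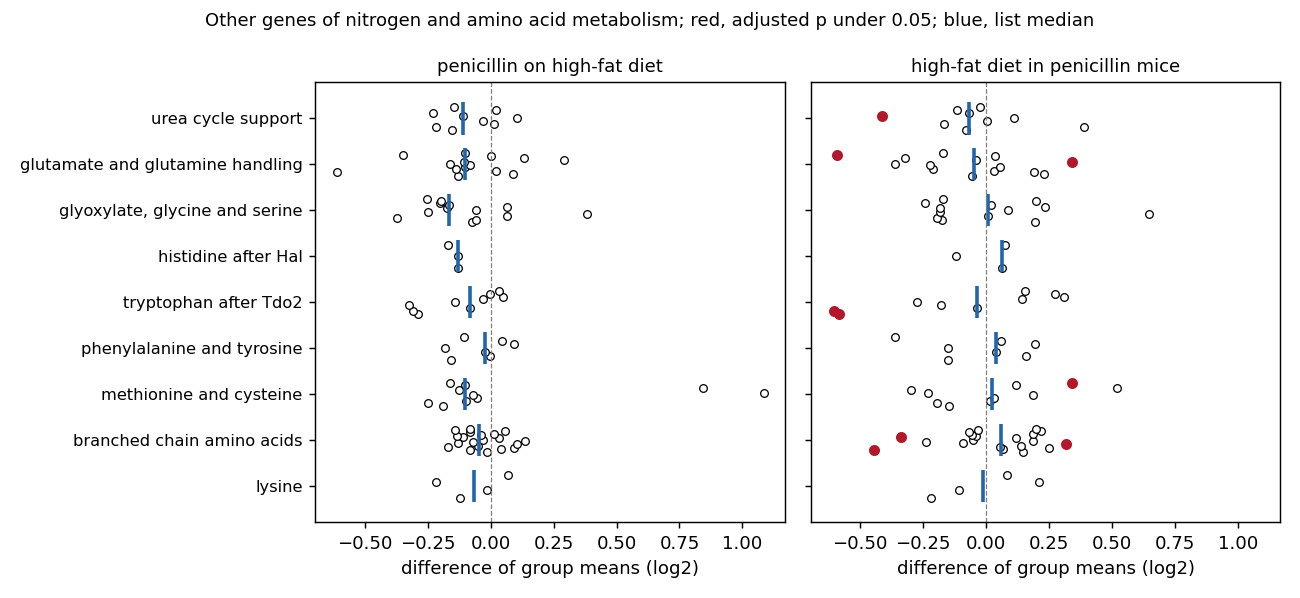
Differences in log2 expression (x axis) for the 89 other genes of 9 pathway lists, 1 point per gene, with list medians as blue bars and genes with an adjusted p under 0.05 in red. For penicillin on the high-fat diet 0 points are red and most lie left of 0; for the high-fat diet in penicillin mice 3 are red to the right and 6 to the left.

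In control mice 2 of the 89 pathway genes changed on the high-fat diet, or 2.25% against 0.899% of all genes. Kyat3, a kynurenine aminotransferase, rose, with 12.47, 12.33 and 12.35 in control high-fat mice, against 11.99, 11.81 and 12.02 in control chow mice (0.44 ± 0.09, adjusted p = 0.0485). Cth, which makes cysteine from cystathionine, fell, with 13.01, 12.96 and 12.81 in control high-fat mice, against 13.43, 13.35 and 13.32 in control chow mice (-0.44 ± 0.09, adjusted p = 0.0469). Averaged over treatments, 5 pathway genes rose and 9 fell on the high-fat diet, or 15.7% against 14.5% of all genes. They included Nags at -0.34 ± 0.07 (adjusted p = 0.00825). The 5 that rose include Arg2, the mitochondrial arginase, which is dim, with values from 4.42 to 5.35. It exceeded the filter level on 4 high-fat arrays and on 1 chow array, so it was tested through the diet in which it is high and nothing is read from its call. The 5 that rose and the share of 15.7% count Arg2, so nothing is read from the distance of that share to 14.5%. For the interaction and for penicillin averaged over diets, 0 of the 89 passed by limma, and 3 and 17 had an unadjusted p under 0.05.

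The genes whose pattern over the 12 arrays was most like that of Agxt were Sorbs3, Cyp2d13 and Mettl17, by the root mean square difference between centred log2 values (0.116, 0.140 and 0.142, where Agxt itself varies by 0.253 about its mean). Sorbs3 had 7.44, 7.47 and 7.48 in penicillin high-fat mice, against 7.87, 8.05 and 7.90 in control high-fat mice. For Cps1 they were Pcyt1b, Ankzf1 and Rhbdd2, at 0.0686, 0.0744 and 0.0745, where Cps1 varies by 0.188. Pcyt1b had 4.96, 5.21 and 4.87 in penicillin high-fat mice, against 5.39, 5.39 and 5.42 in penicillin chow mice. Genes that barely vary come near any pattern by this measure, so the likeness is a description.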

How the data were processed

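Deposited values cover 45101 probe sets on 12 arrays. Per the submitters' processing notes the authors computed these log2 values by RMA, using affy, with versions not given in the sources used here. This method gives all arrays one intensity distribution, so overall differences in RNA amount are removed, and differences are relative to the bulk of genes. Array medians lay between 5.52 and 5.59. Of the probe sets, 34945 carry 1 gene symbol; the brightest per gene was used. A gene was tested if at least 3 arrays exceeded the table's 40th percentile, log2 5.00, which kept 13788. Differences came from limma 3.58.1 in R 4.3.3, with 4 group means on 12 arrays (8 residual degrees of freedom), eBayes and Benjamini-Hochberg adjustment over all tested genes. The fit was tested on simulated data. The labels call replicates biological. Scan batches were not analysed here. Precision is limited by having 3 arrays a group. All members are named, and up to 4 genes of a list by adjusted p; Pcyt1b and other alike genes are the 3 with the smallest root mean square difference. The members and lists were chosen with earlier results of these data known. Alternatives covered the filter, probe sets, scaling, the model, covariates, a replicate block and left-out arrays; fits without the 3 arrays of low 18S signal and without the 2 outlying arrays were chosen after seeing the data.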

Additional observations from a re-analysis of the deposited data

How the results depend on the processing

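The number of members called was counted under each alternative. For penicillin on the high-fat diet, 1 in the fit reported, it was 0 with each probe set tested on its own, with only the 6 arrays compared, with the clock score as a covariate and without the 2 outlying arrays. It was 2 with array weights, with an adjusted p under 0.10 and without the 3 arrays of low 18S signal, 3 with trend and robust variance, and from 0 to 2 with each array left out. For the high-fat diet in penicillin mice, 1 in the fit reported, it was 0 with only the 6 arrays compared and without the 2 outlying arrays, 2 with the mean of all probe sets, with cyclic loess and with a replicate block, 3 with array weights, with trend and robust variance and with an adjusted p under 0.10, and from 0 to 1 with each array left out. For penicillin averaged over diets it was 1, Agxt, with the 18S signal as a covariate, against 0. For the high-fat diet averaged over treatments it was 2, Cps1 and Hal, without the 2 outlying arrays, against 1, and from 1 to 2 with each array left out. The causes were not tested. Fits with fewer arrays also have fewer degrees of freedom. The other counts stayed within 1.5 times, but the member called could change. With the clock score as a covariate Hal was called in place of Cps1, both for the diet in penicillin mice and for the diet averaged over treatments.

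No pairing by replicate number was seen: over 18 same-numbered pairs the correlation of deviations from group means ran from -0.23 to 0.17, with a median of -0.04. It was over 0.1 in 3 of these pairs. Such correlations do not settle whether the numbers pair the mice. The replicate block added Agxt to the calls for the high-fat diet in penicillin mice, 2 in all.

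Of 1611 refits of 63 member differences, 17 lost a call, 20 gained one and 0 reversed a called direction. The sign changed in 58, of Arg1, Ass1, Hal, Otc and Tdo2, none of them past the threshold in either fit. Over all genes, the count for penicillin on the high-fat diet (47) ran from 27 to 183 over the other settings, and from 21 to 113 with each array left out. For penicillin on chow (1) the ranges were 0 to 251 and 0 to 4, for the high-fat diet in control mice (124) 70 to 571 and 21 to 303, and for the high-fat diet in penicillin mice (1147) 482 to 1933 and 530 to 1114. For the interaction (6) they were 1 to 24 and 0 to 10, for penicillin averaged (20) 2 to 416 and 2 to 93, and for the diet averaged (1997) 1109 to 3050 and 1356 to 2077. With 3 mice a group the median standard error was 0.10, so differences well below that of Agxt could be missed.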

Other observations

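Regulators of these pathways were tested as a list of 11 genes. On the high-fat diet in penicillin mice 1 of the 11 rose by limma, where 8.32% of all genes passed. This was Ppargc1a, a coactivator of the fasting response in liver. It had log2 values of 8.34, 7.91 and 7.71 in penicillin high-fat mice, against 6.36, 7.27 and 6.82 in penicillin chow mice. The difference was 1.17 ± 0.21 (adjusted p = 0.0074). Averaged over treatments, 2 of the 11 rose, where 14.5% of all genes passed. They were Ppargc1a, by 1.03 ± 0.15 (adjusted p = 0.00164), and the insulin-regulated factor Foxo1, by 0.48 ± 0.10 (adjusted p = 0.00906). Under penicillin on the high-fat diet 0 of the 11 passed by limma, and 1 had an unadjusted p under 0.05.

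Genes of the zone in which Glul is expressed were counted beside it. Of 12 tested genes of hepatocytes around the central vein, Glul included, 1 fell under penicillin on the high-fat diet: Cyp1a2, a drug-metabolising cytochrome P450, by 0.49 ± 0.09 (adjusted p = 0.0446), where 0.341% of all genes passed. The list as a whole had 7 positive and 5 negative differences, a median of 0.15 and 4 genes at an unadjusted p under 0.05. Cyp1a2 had 11.67, 11.65 and 11.72 in penicillin high-fat mice, against 12.17, 12.22 and 12.10 in control high-fat mice, while Glul stood at 0.37 (adjusted p = 0.086). Averaged over treatments, 3 of the 12 fell on the high-fat diet, namely Cyp1a2 by 1.37, the Wnt target Lgr5 by 0.92 and Tbx3 by 0.87, with a list median of -0.36, where 14.5% of all genes passed, 669 of 13788 lower. In that comparison Glul stood at 0.04 (adjusted p = 0.663), the average of -0.20 in control mice and 0.28 in penicillin mice. For the diet, 11 of the 12 differences were negative in control mice (median -0.47) and 10 of 12 in penicillin mice (median -0.21). Of 10 genes of hepatocytes around the portal vein, 3 of them members, Cyp2f2 and Cdh1 fell and Hsd17b13 rose on the high-fat diet averaged over treatments.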
